A study of Homo sapiens with 2 samples.

Results

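Heparan sulfate is a sulfated sugar chain carried by proteoglycans at the cell surface and in the extracellular matrix. Polymerases extend the chain, sulfotransferases decorate it, and sulfatases and heparanase edit it outside the cell. Its sulfation pattern sets which growth factors, chemokines and proteases it binds. TRF2, the product of TERF2, belongs to shelterin, the complex that protects telomeres by binding their repeats. Earlier work also placed it at sites away from telomeres and named HS3ST4, GPC6 and VCAN among genes whose expression it influences in cancer cells.

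The data described here are the positions of TRF2 chromatin immunoprecipitation peaks at those 3 genes and 4 others of proteoglycans and their enzymes in HCT116, an established colorectal carcinoma cell line. The genes are HS3ST4 and HS3ST5, which encode heparan sulfate 3-O-sulfotransferases, the glypican genes GPC5 and GPC6, the chain polymerase gene EXT1, the sulfatase gene SULF1, and VCAN. VCAN encodes versican, whose chains are chondroitin sulfate and not heparan sulfate. The study had 1 TRF2 immunoprecipitated library, from cells fixed with 1% formaldehyde 72 h after plating, and 1 input library of the sonicated chromatin, with no antibody. All cells were HCT116 and the labels name no treatment. The name given to the peak list mentions a control siRNA, which the labels do not, and the cells are described as labelled. With a single library on each side, samples could not be compared by a test. Intervals below are at 95% and cover counting error only.

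A gene was given every summit, the highest point of a peak, that lay inside it or within 3 kb of it, on the human assembly hg38. The 7 genes, of 19862 protein-coding genes, held 9 of the 24258 summits of the list. The members were chosen by these summits: 6 of the 7 were selected on holding at least 1, and VCAN was kept as a gene of the same earlier work without one. Their counts are therefore a description. Among all protein-coding genes, 941 (4.74%) held a summit by the same measure. Peaks outside centromeres, their 2 Mb flanks and heterochromatin, called arm peaks below, numbered 3378, or 1.22 per Mb.

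Promoters are shown first, because the earlier work concerned expression, and no member had a summit within 3 kb of either end. RefSeq sequences (GRCh38.p14) of the 250 bases before the start site were matched for 5 of the 7 members, HS3ST4, HS3ST5, GPC5, GPC6 and VCAN. The start site is the first one listed for the gene, and any other start site was not examined. The nearest summit to those 5 start sites was 46.9 kb away at GPC6, 65.0 kb at HS3ST5, 68.2 kb at HS3ST4, 325 kb at GPC5 and 596 kb at VCAN. The 2 sister sulfotransferase genes are printed 5′ to 3′ on the gene's strand. They lie at chr16:25691709-25691958 (plus strand) and chr6:114343024-114343273 (minus strand), and capitals mark a G-quadruplex motif.
HS3ST4: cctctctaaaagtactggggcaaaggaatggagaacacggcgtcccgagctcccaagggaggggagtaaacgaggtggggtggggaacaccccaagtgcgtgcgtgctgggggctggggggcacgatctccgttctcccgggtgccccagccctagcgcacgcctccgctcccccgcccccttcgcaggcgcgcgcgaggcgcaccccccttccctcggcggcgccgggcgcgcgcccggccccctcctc
HS3ST5: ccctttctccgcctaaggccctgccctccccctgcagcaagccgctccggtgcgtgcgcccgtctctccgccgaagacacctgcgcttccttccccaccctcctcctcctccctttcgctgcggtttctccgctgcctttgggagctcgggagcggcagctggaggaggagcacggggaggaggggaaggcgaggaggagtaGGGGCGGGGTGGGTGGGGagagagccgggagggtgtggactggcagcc

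The telomere hexamer TTAGGG was searched for on both strands, and none of the 5 member promoters held it, against 7.94% of 35114 promoter entries of the same length. The G-quadruplex motif, 4 runs of at least 3 G with 1 to 7 bases between them on either strand, was in 2 of the 5, HS3ST5 and GPC5, against 23.5% of all entries. HS3ST4, the member with the deepest summit, had no match in this window although its base composition was 72.8% G and C. A match of letters is a description and no binding site. The sequence under the summits themselves was not analysed here.

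HS3ST4 held the strongest summit of the 7 genes. The gene spans 446 kb on chromosome 16 (25691959 to 26137685, band p12.1), and its single peak ran from 25760078 to 25760171. The summit, at 25760124, lay 68.2 kb into the gene, at 15.3% of its length from the start. It held 19 immunoprecipitated reads, a number derived from the deposited fold and p (exact Poisson interval 11.4 to 29.7), over a background of 1.69, derived in the same way. The authors' fold was 7.43 and their −log10 q was 10.4. It was the only member summit with a −log10 q of 5 or more, called strong here. By comparison 103 of all protein-coding genes (0.519%) held a strong summit, and 58 of the longest decile of genes (2.92%).

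No other summit lay in or near HS3ST4. On the short arm of chromosome 16, 28 arm peaks were listed, of which 2 were strong, and this one ranked 2 by fold. Among all 3378 arm peaks it ranked 128, and 3.79% of arm peaks had a fold as high or higher. HS3ST4 was the only 1 of 471 protein-coding genes on that arm with a strong summit in or near it. The nearest summits outside the gene were 921 kb below it (7 reads, fold 3.90, in TNRC6A) and 292 kb above it (6 reads, fold 3.41). At the density of the arm, 0.841 per Mb, a window of this length would hold 0.380 summits of any strength and 0.0271 strong ones. The strong value rests on 2 peaks, of which the HS3ST4 peak is 1. HS3ST4 was also selected for holding a summit, so nothing is read from these differences.

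**Figure D1:**
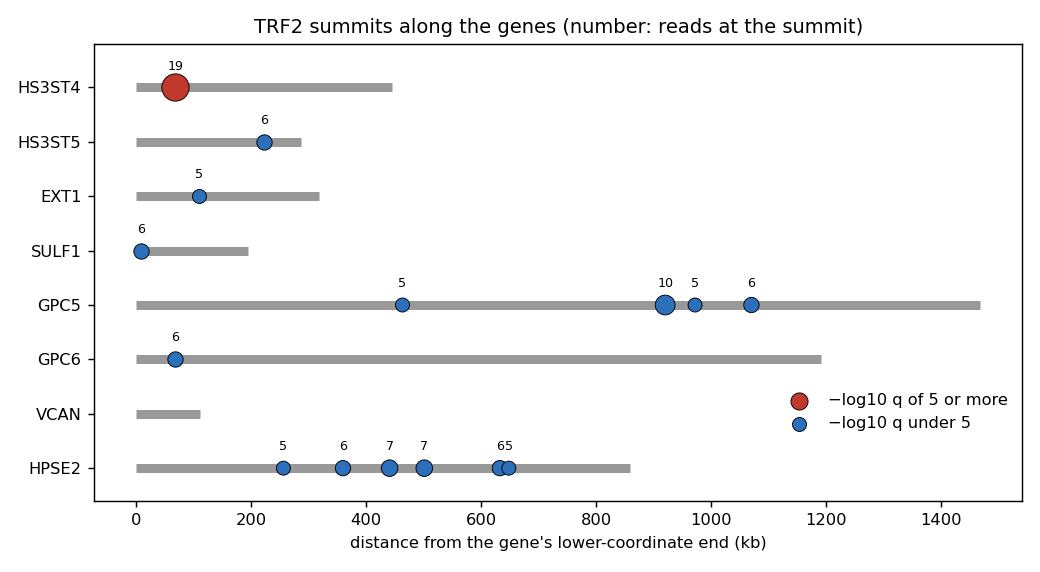
Each grey bar is a gene drawn to scale from its lower-coordinate end (horizontal axis, kb). Circles are TRF2 summits, with area in proportion to the reads at the summit, which are printed above them. HS3ST4 has the only red (strong) circle, with 19 reads, HPSE2 has 6 shallow summits, and VCAN has none.

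HS3ST5, the sister enzyme on chromosome 6, carried a much shallower peak. The gene spans 287 kb (114055596 to 114343023, minus strand), and the summit at 114278056 lay 65.0 kb into it, at 22.6% of its length from the start. The position is shared with the annotated lncRNA gene HDAC2-AS2, so the summit belongs to both spans. There were 6 reads (2.20 to 13.1) over a background of 1.05, with a fold of 3.41 and a −log10 q of 0.811. That background is the lowest in the whole list and is shared by 76.0% of arm peaks, so it does not set this site apart. The intervals of the read counts at HS3ST4 and HS3ST5 overlap, from 11.4 to 13.1. The expected number of summits was 0.229 from the density of 6q (0.782 per Mb) and 0.323 from the 5 Mb on either side.

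The glypicans are core proteins anchored to the membrane by a lipid, and GPC5 and GPC6 lie side by side on the long arm of chromosome 13. GPC5 had the most summits of the members, with 4. It spans 1469 kb (91398621 to 92867237), and its summits lay at 31.5%, 62.7%, 66.2% and 72.9% of its length from the start. The second, at 92318967, was the deepest, with 10 reads (4.80 to 18.4) over a background of 1.05, a fold of 5.37 and a −log10 q of 4.12. The other three held 5, 5 and 6 reads, with folds of 2.93, 2.93 and 3.41. Their intervals overlap that of the deepest. The last 3 summits were 52.0 kb and 98.0 kb apart, while the first was 457 kb from the second.

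GPC6 spans 1191 kb (93216529 to 94408020) and held 1 summit, at 93283856. It lay 57.0 kb past the RefSeq start site, which is itself inside the annotated span, and 67.3 kb (5.65% of the span) from the lower-coordinate end, with 6 reads (2.20 to 13.1), a fold of 3.41 and a −log10 q of 0.811. The remaining 1124 kb of the gene had no summit. Between the genes, in 349 kb, there was 1 more summit at 93179957 (6 reads, fold 3.41), 36.6 kb below GPC6. This is the nearest summit that the 3 kb rule left out of any member; of those taken in, the nearest to a gene's edge was in SULF1, 7.74 kb inside. Per Mb there were 2.72 summits in GPC5, 2.86 between the genes and 0.839 in GPC6.

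Expectations for the glypicans followed from the density of 13q, 1.11 arm peaks per Mb. GPC5 was expected to hold 1.64 summits and held 4 (2.44 times, interval 0.664 to 6.24). GPC6 was expected to hold 1.33 and held 1 (0.750 times, interval 0.0190 to 4.18). Both genes were selected on holding a summit, so these ratios are a description. GPC5 was the only 1 of 336 protein-coding genes on 13q with 4 or more summits, and 47 of all protein-coding genes had as many or more. That rank is a description too, because GPC5 was selected and the rank takes no account of length. Only 1 of its 4 summits had a q-value under 0.05. GPC5 and GPC6 are the longest of the members, and after each other the gene on 13q closest to them in length was PCDH9 (928 kb, 1 summit).

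EXT1 and SULF1 lie on the long arm of chromosome 8, the arm with the highest density of arm peaks, 5.78 per Mb. The part from q13 to q24 is known from general knowledge to be gained in this cell line, and it had 6.67 peaks per Mb. EXT1, which with EXT2 forms the polymerase of the chain, spans 317 kb (117794490 to 118111826). Its summit at 117902910 had the lowest fold of the 9, with 5 reads (1.62 to 11.7), a fold of 2.91 and a −log10 q of 0.230. It ranked 553 of the 555 arm peaks of 8q by fold. SULF1, which removes 6-O-sulfates from finished chains, spans 194 kb (69466781 to 69660912). Its summit at 69474525 lay at 3.99% of the length from the lower-coordinate end, with 6 reads (2.20 to 13.1), a fold of 3.41 and a −log10 q of 0.811.

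Neither gene held more summits than its surroundings would give. At the density of 8q, EXT1 was expected to hold 1.87 and SULF1 1.16. The 5 Mb on either side of EXT1 had 95 summits (9.50 per Mb), which raised its expectation to 3.07, and those around SULF1 had 68 (6.80 per Mb), which gave 1.36. Each gene held 1. The part that extra copies play in these densities was not tested.

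VCAN, the chondroitin sulfate proteoglycan, had no summit. At 111 kb (chromosome 5, 83471744 to 83582302) it is the shortest of the 7 genes, and at the density of 5q it was expected to hold 0.125. A count of 0 in that window allows up to 3.69 summits (exact Poisson), so an absence could not be told from the expectation. The nearest summits were 485 kb above (6 reads, in EDIL3) and 1751 kb below it (5 reads, in SSBP2).

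**Figure D2:**
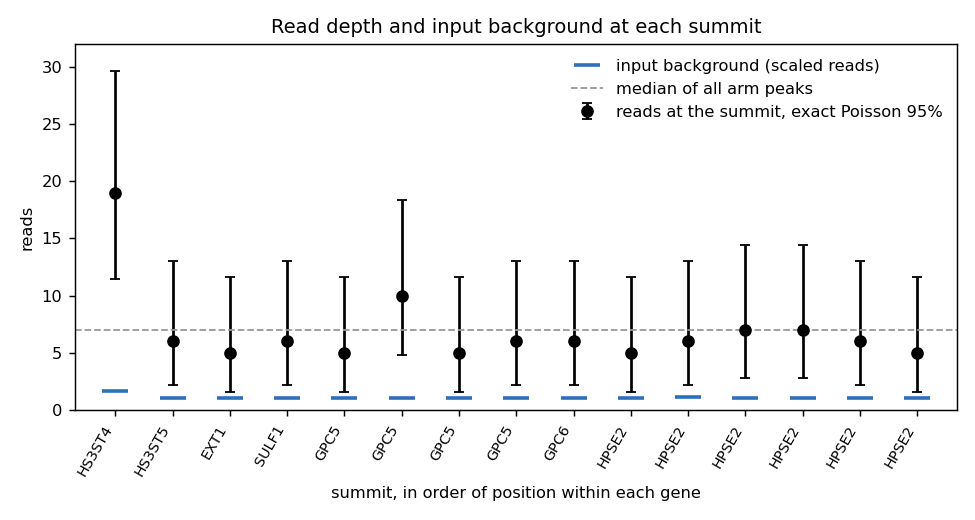
Points are reads at each summit (vertical axis, reads) with exact Poisson 95% intervals, and the grey line is the median of all arm peaks, 7 reads. Blue dashes, labelled input background, are the background derived from fold and p. HS3ST4 (19 reads) and the second GPC5 summit (10 reads) are above the line, and no other summit is.

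As a group the member summits were shallow. Their median was 6 reads and a fold of 3.41, against 7 reads and 3.76 for all arm peaks and 7 reads and 3.89 for the arm peaks inside protein-coding genes. The arms that held the member summits differed. Arm peaks of 13q (GPC5, GPC6) and of 8q (EXT1, SULF1) also had medians of 6 reads and 3.41. Those of 16p had 7 reads and 3.66, and those of 6q 7 reads and 3.76. Of the 9, 7 held 5 or 6 reads (77.8%, against 42.9% of all arm peaks, 52.9% on 13q, 50.5% on 8q, 47.0% on 6q and 35.7% on 16p). At the lowest background 5 reads gave a −log10 p of 3.12 and 4 reads gave 2.35. The list holds no peak under 3.01, so the 3 member summits of 5 reads stood at its edge. Those of 6 reads had a −log10 p of 3.95. Only 2 of the 9 had a q-value under 0.05, the HS3ST4 summit and the deepest of GPC5, against 54.7% of arm peaks. The background was at its minimum at 7 of 9 (77.8%, against 76.0% of all arm peaks and 78.6% of those inside protein-coding genes). The exceptions were HS3ST4 (1.69) and EXT1 (1.06).

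Longer genes held summits more often. The share of protein-coding genes with a summit rose from 0.604% in the shortest decile of genes to 24.8% in the longest decile (153306 bp or more), and was 2.51% over all genes outside the longest decile. All members except VCAN were in the longest decile. With the arm densities and lengths, the 7 genes together were expected to hold 6.74 summits and held 9 (1.34 times, interval 0.611 to 2.54). From the 5 Mb around each gene they were expected to hold 8.08. Evenly spread summits at the arm densities would have reached 3.71 of the 7 genes. Since 6 were selected on holding a summit, nothing is read from this difference.

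**Figure D3:**
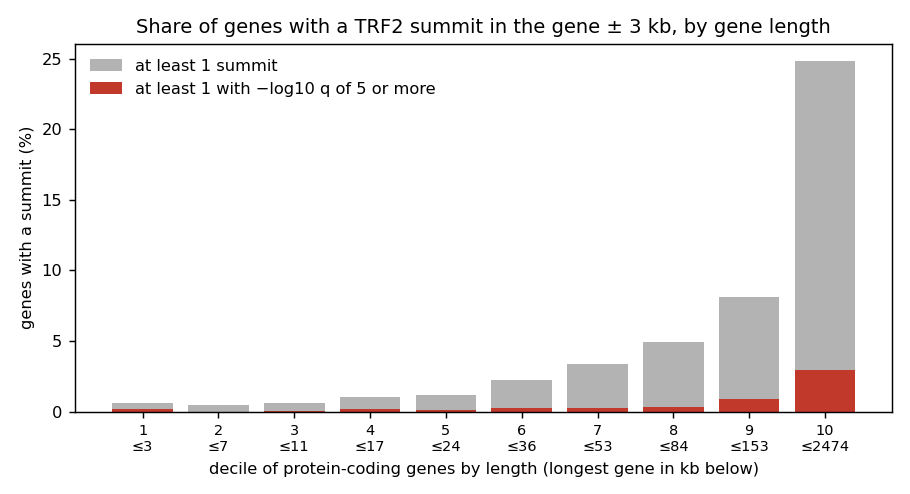
Bars give the percentage of protein-coding genes with at least 1 summit in the gene or within 3 kb (grey) and with at least 1 strong summit (red), for deciles of genes by length from shortest to longest. The grey bar reaches 24.8% in the longest decile, which holds every member except VCAN.

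Genes of closest length on the same arm were listed beside each member with a summit. Beside GPC5 and GPC6 these were each other, with 4 summits and 1, and PCDH9, with 1. GRIN2A and PRKCB, beside HS3ST4, had no summit. TRMT11 and AIG1, beside HS3ST5, had none, nor had TOX and RP1 beside EXT1 or ZHX2 and C8orf44-SGK3 beside SULF1. The members had been picked for holding a summit and these genes by length alone, so nothing is read from the difference.

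The wider pathway was read from a list of 57 heparan sulfate genes, which includes 6 of the members. Of these 9 held a summit, but 6 of the 9 are members selected for holding one, so that count is a description. The 9 genes held 17 summits, against 14.2 expected over the list by length and arm density (1.20 times). Only HS3ST4 had a strong one. Among the 51 genes that are no members, 3 (5.88%, exact binomial interval 1.23% to 16.2%) held a summit, near the 4.74% of all protein-coding genes, and length and arm density would have reached 5.84. They held 8 summits, against 7.58 expected. Taking the members out removes genes known to hold summits, which can only lower these counts. In the longest decile 2 of the 11 listed genes that are no members held a summit, where 24.8% of all genes of that decile did, and 1 of the 40 shorter genes did. With the 6 members the first count is 8 of 17. Leaving out the parts of 8q, 10q and 17q with extra copies, 5 of 49 genes held a summit, 4 of them members, against 6.14 expected.

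By role, the core proteins had summits in 2 of 14 genes, GPC5 and GPC6, and none in the syndecans, perlecan (HSPG2) or agrin (AGRN). The longest core protein gene without one was GPC3, of 450 kb on the X chromosome. None of the 6 genes that build the linker to the protein had one; XYLT1 (369 kb), the xylosyltransferase of its first step, was the longest. None of the 4 N-deacetylase and N-sulfotransferase genes had one, NDST4 (286 kb) and NDST3 (225 kb) included. Of 5 polymerase genes only EXT1 did. Of 12 epimerase and O-sulfotransferase genes HS3ST4 and HS3ST5 did, while HS6ST3, at 749 kb the longest listed gene without a summit, did not. One of 4 genes of sulfate donor supply, SLC35B3, a transporter of the sulfate donor, held a summit of 5 reads and a fold of 2.93. Of 8 lysosomal genes 1, the sulfatase gene ARSG, held another of 5 reads and a fold of 2.93. Expected genes with a summit, by length and arm density, were 2.82 core protein, 0.480 linker, 0.703 N-deacetylase and N-sulfotransferase and 1.23 polymerase genes. For epimerase and O-sulfotransferase, donor supply and lysosomal genes they were 1.73, 0.337 and 0.4996. GPC5, GPC6, EXT1, HS3ST4 and HS3ST5 are members selected for holding a summit, so these counts by role are a description.

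Of all the role groups the editing enzymes held the most summits, 7, of which 6 were in HPSE2 and 1 in the member SULF1. Length and arm density gave 2.97 summits for these 4 genes (2.36 times, interval 0.949 to 4.86). HPSE and SULF2 held none. SULF1 was selected for holding a summit and HPSE2 was already known to hold summits, so this ratio is a description. HPSE2 encodes heparanase-2, which binds heparan sulfate but lacks the chain-cutting activity of heparanase. The gene spans 859 kb on chromosome 10 (98457077 to 99315951, band q24.2, minus strand) and carried 6 summits, at 98713182, 98816819, 98897896, 98958241, 99089763 and 99105381. They held 5, 6, 7, 7, 6 and 5 reads, with folds of 2.93 to 3.90, and all lay inside the gene, 15.6 kb to 132 kb apart. Only 2 of the 6, those of 7 reads, had a q-value under 0.05, and none was strong. HPSE2 was 1 of 25 protein-coding genes with 6 or more summits, 4 of them on 10q. That rank takes no account of length, and HPSE2 is in the longest decile, where 24.8% of genes held a summit.

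The sequence around HPSE2 held few summits. Its density was 6.94 summits per Mb (2.55 to 15.1), while the 5 Mb on either side together held 1 summit, or 0.100 per Mb (0.00253 to 0.557). These intervals do not overlap. The density of 10q gave an expectation of 1.68 (3.58 times, interval 1.31 to 7.78). The part from q24 to q26, also known to be gained in this cell line, had 3.35 peaks per Mb and gave 2.90 (2.07 times, interval 0.760 to 4.51), so against that part of the arm the interval includes 1. The next summit above the gene was 5081 kb away, and the next below was 178 kb away. The background was at its minimum at 5 of the 6 summits (83.3%, against 72.6% of 10q arm peaks) and 1.13 at the other. The gene was known to hold summits before these densities were computed, so the contrast is a description.

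**Figure D4:**
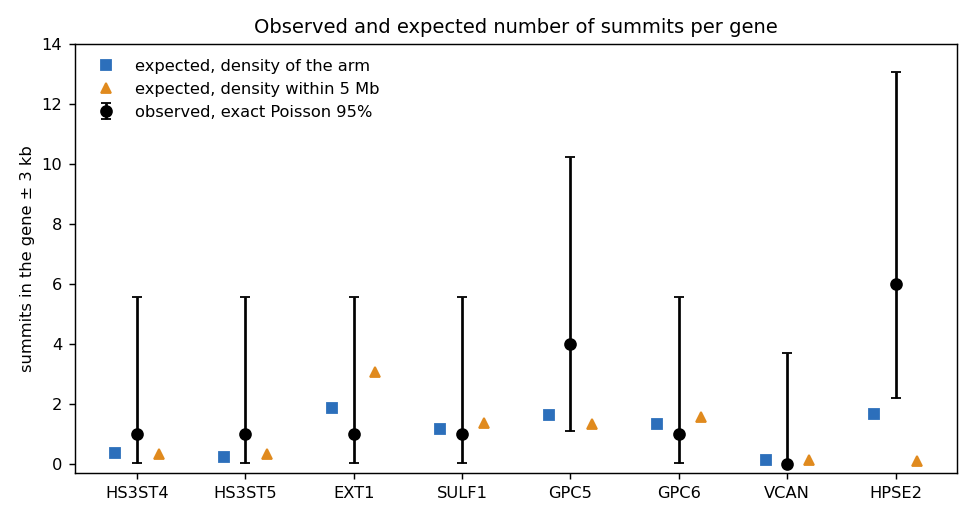
Black points are the summits counted in each gene and 3 kb around it (vertical axis, number) with exact Poisson 95% intervals. Blue squares are expectations from the density of the chromosome arm and orange triangles from the 5 Mb on either side. At HPSE2 both of these expectations lie below the interval (the one from q24 to q26 alone, 2.90, is not drawn and lies inside it), at GPC5 (4 summits) and the other members they lie inside it.

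Chondroitin and dermatan sulfate genes, the pathway of VCAN, had no summit in any of 24 (exact binomial interval 0% to 14.2%). Length and arm density would have reached 1.89 genes, and a count of 0 allows up to 1.78 times the expected summits, so this was within counting error. The longest of them were CSGALNACT1 (354 kb) and UST (330 kb). Of 8 genes that earlier work tied to TRF2 outside telomeres, HS3ST4 and GPC6 held a summit, and VCAN, PDGFRB, SIRT3, IL1R1, CDKN1A and TERT did not. Length and arm density would have reached 1.44 of the 8, and 4.74% of all protein-coding genes held a summit. HS3ST4 and GPC6 are members selected for holding one, so nothing is read from this count. The nearest summit to SIRT3, a mitochondrial deacetylase gene, lay 23.2 kb below it, in SCGB1C1, with 15 reads and a fold of 4.88. It was close to the chromosome end, at position 191843 of chromosome 11, over a background of 2.28. For CDKN1A, the cell cycle inhibitor p21, the nearest lay 121 kb below the gene, with 16 reads and a fold of 7.17. Those of TERT, IL1R1 and PDGFRB lay 421 kb, 224 kb and 1409 kb below the gene, with 6, 7 and 5 reads.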

How the data were processed

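HCT116 chromatin was immunoprecipitated with an antibody to TRF2 (5 μg per 100 μg of chromatin, sheared to 300 to 400 bp, per the labels' protocols). The only file used was the authors' list of peaks of that library over its input. Tools listed in the submitters' processing notes are the aligner Bowtie2 (2.3.2), the peak caller MACS2 (2.1.0), HOMER and ChIPseeker (1.36.0). The sources used here give no settings, duplicate handling or library totals, so total depth is unknown.

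The deposited fold is a ratio of pileup to the caller's background at the summit. That background had the same lowest value at 76.0% of arm peaks, so it is not read as input depth measured at each site. The authors' −log10 values of p and q were used as deposited. The deposited score column was not used. Reads at the summit and the background were recovered from fold and p, taking fold as pileup plus 1 over background plus 1 and p as the Poisson tail above the pileup. A whole pileup fitted 100% of peaks within 0.001 of the −log10 p, and the recovery was tested on simulated data.

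Bands came from circlize 0.4.16 (R 4.3.3) and gene spans from RefSeq (GRCh38.p14, the primary assembly of hg38), in which 86 of 86 listed symbols matched. The table has no exons, and strand came from the promoter table. Expected counts are window length times peak density, for genes wholly on arms, which left out HGSNAT and CSGALNACT2. Every member was described, with each listed gene holding a summit and the longest without one. The members and lists were chosen with earlier results of these data known, and the printed promoters were chosen after their values were seen. Alternatives changed the window, the peak threshold, the overlap and the density. Computation was in Python 3.11.15 with scipy 1.17.1, pandas 2.3.3, numpy 2.4.6 and, for figures, matplotlib 3.10.9. Coordinates are 1-based.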

Additional observations from a re-analysis of the deposited data

How the results depend on the processing

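The count of 9 member summits in 6 genes was the same with a window of 0 kb or 10 kb, with peak overlap in place of summits, and with summits within 1 kb counted as 1. Without the parts with extra copies it was 7 summits in 4 genes. It fell to 2 summits in 2 genes with a q-value under 0.05, with a fold of 5 or more, and with 8 reads or more, and to 1 summit in 1 gene with a −log10 q of 5 or more; fewer peaks entered each of these. The observed over expected ratio of the members, 1.34, became 3.76 with a −log10 q of 5 or more and 6.04 with a fold of 5 or more, on 1 and 2 summits. It was 0.635 with a q-value under 0.05, below 1 where the main value is above it, and 1.11 to 1.89 under the other 9 alternatives. The 9 heparan sulfate genes with a summit became 3 with a q-value under 0.05, 1 with a −log10 q of 5 or more, 2 with a fold of 5 or more, 2 with 8 reads or more and 5 without the parts with extra copies. Their ratio of 1.20 became 0.558 with a q-value under 0.05, 2.10 with a fold of 5 or more and 0.526 with 8 reads or more. No chondroitin or dermatan sulfate gene held a summit under any of the 9 alternatives run for them. Most member summits hold 5 or 6 reads, and no peak of the list holds fewer than 5. At the lowest background 4 reads gave a −log10 p of 2.35, under the lowest in the list, 3.01. Weaker signal was therefore not listed, and total depth is unknown. Whether the shallow summits mark TRF2 binding was not tested. No paired analysis was possible because there was 1 library per group.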
